A study of Homo sapiens with 12 samples.

Results

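The comparison described here set the 6 RNA-seq libraries numbered replicate 2 against the 6 numbered replicate 1, which together are the 12 libraries of the series. The cells derived from Kelly, an established line of human neuroblastoma with an amplified MYCN gene and an adrenergic, that is sympathetic neuron-like, character. Each of the 3 derivatives carried a doxycycline-inducible short hairpin RNA, directed against RCOR1 (shRCOR1), against RCOR2 (shRCOR2) or against no transcript (shCTRL). Cells of each line were left without doxycycline (untreated) or received 2 µg/mL of it (induced), with 72 h given as the time in the sample titles, while the treatment protocol mentions shorter times. The 6 groups of line by treatment held 1 library of each number, so that every replicate 2 library had a partner of the same line and treatment. All 12 libraries shared the parental cell line, serum-containing RPMI medium and the integrated hairpin system, and the labels do not say how many clones a line came from. They also do not say whether a number stands for a separate culture, a day or a sequencing run. The sets differ in whatever that number stands for, and the 6 pairs are repeated readings of 1 difference between sets. The p-values below therefore measure how steady a difference was over the 6 groups, which may be technical, and not over independent repeats of a state.

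Several gene programmes known from cultured tumour cells organise the account. Dividing cells switch on the genes of DNA replication under the E2F factors in S phase, and the genes of mitosis later through CHR elements and CCAAT boxes in their promoters. Immediate early genes such as FOS and EGR1 are transcribed within minutes of a stimulus such as fresh serum, in part through CArG boxes bound by serum response factor (SRF), and their RNA is short-lived. ATF4 is a transcription factor made when amino acids are short or proteins misfold, and it raises the genes of amino acid synthesis and import. Neuroblastoma cells occur in an adrenergic state, marked by the enzymes of noradrenaline synthesis, and a mesenchymal state, marked by matrix and cytoskeletal genes.

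Values are TPM, a length-normalised share of the library's RNA. Differences are log2(TPM + 1) in replicate 2 minus replicate 1 of the same group, fitted over the 6 pairs and given with a standard error. Genes were called where limma's p, adjusted by Benjamini and Hochberg, was below 0.05 over the 16842 genes that reached a TPM of 1 in at least 2 libraries. The files used here carry no read totals. Coverage divided by FPKM, a measure that rises with depth, ran from 13.1 to 28.3, and its log2 value differed between the sets by −0.16 ± 0.57 (SD over the 6 pairs; exact sign-flip permutation test, 2-sided, p = 0.594). Transcripts of the mitochondrial genome took 15.1% of TPM in replicate 1 and 19.4% in replicate 2, higher in 6 of 6 pairs by 4.28 ± 0.999 percentage points (SD; exact p = 0.0312, the smallest 6 pairs can give; adjusted p = 0.0469). A TPM of 1 was reached by 14965 genes on average in replicate 1 and by 15760 in replicate 2, 796 ± 344 more (6 of 6 pairs; exact p = 0.0312, adjusted p = 0.0469). The targeted genes were lower in the induced libraries of their own lines in both sets. RCOR2 stood at 55.4 and 49.9 TPM in untreated and 17.7 and 20.5 TPM in induced shRCOR2 cells of replicates 1 and 2. RCOR1 stood at 8.32 and 9.08 TPM in untreated and 4.80 and 5.07 TPM in induced shRCOR1 cells.

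A large share of the genes tested differed between the replicate sets. limma called 7974 of 16842 genes (47.3%), 5617 higher in replicate 2 (33.4%) and 2357 lower (14.0%). In all 6 pairs alike, 5154 genes (30.6%) were higher and 2205 (13.1%) were lower, and 6675 of the called genes had the same sign in the 6 pairs. Large differences were few: 202 called genes differed by at least 1 on the log2 scale, 184 of them higher and 18 lower in replicate 2. Of the variance of log2(TPM + 1) over the genes tested, line and treatment held 60.1%, the replicate number 25.0% and the remainder 14.9%. The direction split depends on the scaling, because TPM are shares: with median-of-ratios scaling 3781 genes were higher and 3998 lower, and with quantile normalization 3170 and 3492. With the mitochondrial genes left out the split was 7343 and 1552, and with centring by transcript length and GC content 3524 and 3771. The median difference of all genes was 0.10 with TPM. It was 0.00 and −0.02 with the first and second of those scalings and 0.16 with the third. Each list below is read against the shared median of 0.10, which does not allow for level. In 5 equal groups of protein-coding genes by mean TPM the median fell from 0.24 at the lowest level to −0.10 at the highest. Of 2578 genes in each, 1141 were called higher in the lowest group and 1128 lower in the highest. A list of low genes that rose, or of high genes that fell, may lie nearer the median of its own level than 0.10. That was not tested. Without the 2 pairs of the shCTRL line the count of called genes was 4890.

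**Figure D1:**
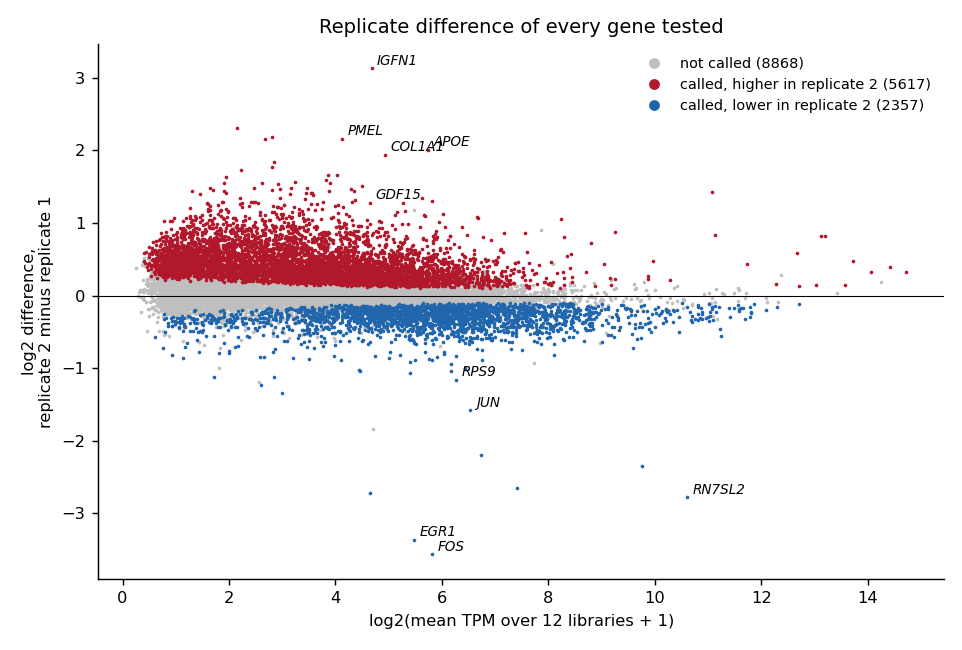
The log2(TPM + 1) difference of each of the 16842 genes tested, replicate 2 minus replicate 1 as fitted over the 6 pairs, is plotted against log2 of the mean TPM over 12 libraries plus 1. Called genes that were higher in replicate 2 (5617, red) lie mostly at low and middle levels, while FOS, EGR1, RN7SL2 and JUN stand lowest among the genes named in the plot.

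Among protein-coding genes with a mean of at least 5 TPM and the same sign in all 6 pairs, the largest rise was in IGFN1 (chromosome 1, 201190824 to 201228952, GRCh38), a muscle gene for a protein with immunoglobulin and fibronectin domains. Its lowest, median and highest values were 0.522, 1.41 and 20.9 TPM in replicate 1 and 6.62, 30.8 and 114 TPM in replicate 2, a difference of 3.13 ± 0.52 (limma adjusted p = 0.00256). The sets overlapped, because the induced shRCOR1 library of replicate 1 (20.9 TPM) lay above 3 replicate 2 libraries, but each pair moved the same way. PMEL, which encodes the fibril protein of melanosomes, ran over 1.14 to 6.23 TPM in replicate 1 and 4.14 to 59.2 TPM in replicate 2 (2.15 ± 0.30, limma adjusted p = 0.00131). APOE, for the lipid carrier apolipoprotein E, held 7.46, 21.1 and 28.9 TPM in replicate 1 and 27.0, 70.3 and 151 TPM in replicate 2 (lowest, median, highest; 2.01 ± 0.25, limma adjusted p = 0.00102). In APOE the sets overlapped by 1 pair of libraries: the highest of replicate 1 (28.9 TPM) exceeded the lowest of replicate 2 (27.0 TPM). Also among the 12 largest were COL1A1 (1.94 ± 0.32) and COL3A1 (1.48 ± 0.18), the chains of fibrillar collagens, and ZFP36L1 (1.84 ± 0.21), an RNA-binding protein that speeds the decay of AU-rich messages. The others were the hormone receptor gene GIPR (1.66 ± 0.22), the kinesin gene KIFC2 (1.60 ± 0.18), the sorting nexin gene SNX32 (1.54 ± 0.18), the secreted galectin-binding protein gene LGALS3BP (1.50 ± 0.15), and MEF2B (1.56 ± 0.36) and the read-through gene STX16-NPEPL1 (1.67 ± 0.18). The last pair share exons with neighbouring or read-through genes, so their values are uncertain, and MEF2B was at 0.92 without the shCTRL line.

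The largest falls of the same kind included FOS (−3.57 ± 0.76), JUN (−1.58 ± 0.37), IER2 (−1.04 ± 0.24) and JUNB (−0.89 ± 0.19), which are immediate early genes described further on. GFRA2, the neurturin receptor that works with RET, fell in the 6 pairs by similar amounts (−0.83 ± 0.08, limma adjusted p = 0.000826), over 25.8 to 44.3 TPM in replicate 1 and 14.1 to 26.0 TPM in replicate 2. ISLR2, a membrane protein of axons, was lower as well (−0.87 ± 0.17, limma adjusted p = 0.00485). OVCA2 (−1.23 ± 0.26), RPS9 (−1.16 ± 0.20), PSMB3 (−0.88 ± 0.23), GAGE12F (−1.06 ± 0.22) and GAGE13 (−0.83 ± 0.12) were lower too. Those 5 may share reads with an overlapping gene or with near-identical copies, so their values are uncertain; OVCA2 was at −0.76 without the shCTRL line.

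Mitotic genes were lower in replicate 2 almost throughout. Of 35 measured genes of G2 and mitosis, 33 were called lower and 0 higher, against 14.0% and 33.4% of all genes, and 32 were lower in all 6 pairs. The list median was −0.46 and ran from −0.76 to −0.27 over the pairs, against 0.10 for all genes. Leading the list were UBE2C, the ubiquitin-conjugating enzyme of the anaphase-promoting complex, PLK1, the mitotic Polo-like kinase, and CCNB1, the cyclin that drives entry into mitosis. The promoters of PLK1 and CCNB1 are shown because CCAAT boxes and CHR elements are known to time mitotic genes. Capitals mark the CCAAT box (CCAAT or ATTGG) and the CHR element (TTTGAA or TTCAAA) in the 110 bases before the RefSeq start, 5′ to 3′. The PLK1 stretch holds 1 of each, while that of CCNB1 holds 2 CCAAT boxes and no match to the CHR letters, which says only that they are not in this window. Both lie on the plus strand of GRCh38.p14, PLK1 at chr16:23678779-23678888 and CCNB1 at chr5:69167040-69167149.
PLK1: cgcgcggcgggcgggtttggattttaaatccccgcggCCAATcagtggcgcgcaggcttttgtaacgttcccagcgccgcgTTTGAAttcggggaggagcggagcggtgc
CCNB1: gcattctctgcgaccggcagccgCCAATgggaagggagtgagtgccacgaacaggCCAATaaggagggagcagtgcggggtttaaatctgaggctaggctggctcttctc
Over the 250 bases before the start, on both strands, 26 of 30 matched G2 and mitosis genes held a CCAAT box (86.7%), 19 a CHR element (63.3%) and 17 both (56.7%). Of the 28 matched genes called lower 16 held both (57.1%). Among all 10874 tested genes with a promoter in the table, 41.6% held a CCAAT box, 11.8% a CHR element and 4.75% both. The list was drawn up from mitotic genes, so this is a description of its members and a match is not evidence of binding.

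In untreated shCTRL, shRCOR1 and shRCOR2 cells, in that order, the PLK1 libraries held 144, 144 and 138 TPM in replicate 1 and 92.0, 100.1 and 96.7 TPM in replicate 2, and in induced cells the order gave 104, 93.1 and 57.1 TPM and 70.2, 39.7 and 43.0 TPM. PLK1 (chromosome 16, 23677656 to 23690367) was lower in replicate 2 in each pair, most in induced shRCOR1 cells (−1.21), while the ranges of the sets overlapped because the induced libraries of either number were low (−0.64 ± 0.10, limma adjusted p = 0.00173). UBE2C (chromosome 20, 45812576 to 45816957) held 102, 198 and 222 TPM in replicate 1 and 72.4, 126 and 160.4 TPM in replicate 2 (lowest, median, highest; −0.64 ± 0.07, limma adjusted p = 0.000839). CCNB1 (chromosome 5, 69167135 to 69178245) gave 113, 181 and 214 TPM in replicate 1 and 70.4, 117 and 151 TPM in replicate 2 (−0.61 ± 0.08, limma adjusted p = 0.00104), so that the median of replicate 2 was near the lowest value of replicate 1. MKI67, the proliferation antigen, was 1 of the 2 list members not called and was picked here after its values were seen: 5 of 6 pairs were lower, with 0.12 in untreated shRCOR1 cells (−0.24 ± 0.09, limma adjusted p = 0.0579). Every scaling tried left 32 to 35 of the 35 genes called lower, and without the shCTRL line 30 were. In bulk RNA, fewer dividing cells and less of these RNAs per dividing cell cannot be told apart.

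Genes of DNA replication followed the mitotic genes, with a wider spread between pairs. Of 41 S phase and E2F target genes, 33 were called lower (80.5%) and 0 higher, against 14.0% and 33.4% of all genes. In the 6 pairs alike 24 were lower. The list median was −0.39, at −0.90 in the induced shCTRL pair and −0.03 in the untreated shRCOR1 pair. GINS2, a subunit of the replicative helicase, is shown with its promoter because it holds an E2F site, marked in capitals (GCGGGAAA, the reverse complement of TTTCCCGC). The 110 bases before the start are given along the minus strand at chr16:85688955-85689064 (GRCh38.p14).
GINS2: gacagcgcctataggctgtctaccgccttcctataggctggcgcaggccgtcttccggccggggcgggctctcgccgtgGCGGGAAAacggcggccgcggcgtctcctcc
An E2F site, searched as TTTCCCGC, TTTCGCGC, TTTGCCGC or TTTGGCGC on both strands, stood in 16 of 36 matched list promoters (44.4%) and in 14 of the 29 called lower (48.3%), against 5.56% of all promoters. A CHR element stood in 2 of the 36. GINS2 (chromosome 16, 85676198 to 85690073) held 45.5, 53.2 and 59.7 TPM in replicate 1 and 20.97, 33.0 and 45.0 TPM in replicate 2 (lowest, median, highest; −0.64 ± 0.13, limma adjusted p = 0.00543), with the sets just apart. MCM5, another helicase subunit (chromosome 22, 35400134 to 35425431), held 171, 189 and 217 TPM in replicate 1 and 60.5, 132 and 148 TPM in replicate 2 (−0.73 ± 0.14, limma adjusted p = 0.00458). The sets did not overlap in MCM5, whose pairs ran from −1.55 in induced shCTRL cells to −0.21 in untreated shRCOR1 cells. TYMS, for thymidylate synthase, the enzyme that makes dTMP, ran over 195 to 342 TPM in replicate 1 and 117 to 253 TPM in replicate 2 (−0.66 ± 0.12, limma adjusted p = 0.00326), with the smallest difference again in the untreated shRCOR1 pair (−0.20). Depending on the scaling, 25 to 38 of the 41 genes were called lower, and without the shCTRL line 21 were.

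Genes of the G1 phase and histone genes held calls in both directions. Of 12 G1 cyclins and inhibitors 3 were called higher (25.0%) and 4 lower (33.3%), against 33.4% and 14.0% of all genes, with a median of −0.06 (0.01 with the mitochondrial genes left out). The lower count was 2 with the mitochondrial genes left out and without either shRCOR1, the untreated shCTRL or the untreated shRCOR2 pair. CDKN2C, for the CDK inhibitor p18 of the G1 phase, was lower at 61.1 ± 7.10 TPM in replicate 1 and 39.0 ± 6.54 TPM in replicate 2 (SD, n = 6 each; −0.65 ± 0.07, limma adjusted p = 0.000831), and its sets did not overlap. Its target CDK4, the kinase that starts the passage into S phase, was lower as well (−0.41 ± 0.04, limma adjusted p = 0.000826). CDKN1C, for the CDK inhibitor p57, was higher in 5 pairs (0.75 ± 0.21, limma adjusted p = 0.0171). The CDKN1C call ended with quantile normalization (0.52, limma adjusted p = 0.057), without the untreated shCTRL pair (0.65, limma adjusted p = 0.0533) and without the shCTRL line (0.41, limma adjusted p = 0.0909).

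Replication-dependent histone genes, which are transcribed in S phase, were not lower as a list. Of 22 measured, 2 were called higher (9.09%) and 3 lower (13.6%), against 33.4% and 14.0% of all genes. The list had a median of 0.01 and pair medians from −0.29 in untreated shRCOR1 to 0.56 in induced shCTRL cells. That median was −0.07 with median-of-ratios scaling and −0.21 with quantile normalization, which called 0 higher and 7 lower. The higher count was also 0 with median-of-ratios scaling, without the induced shRCOR1 pair and without the shCTRL line, and 1 without either shCTRL or the induced shRCOR2 pair. H2AC20 (−0.73 ± 0.10, limma adjusted p = 0.00128) and H2BC14 (−0.47 ± 0.10, limma adjusted p = 0.00643) were lower in the 6 pairs, and H2BC8 was higher in 5 (0.51 ± 0.16, limma adjusted p = 0.0317). The H2BC8 call ended with median-of-ratios scaling (0.41, limma adjusted p = 0.0612), with quantile normalization (0.28, limma adjusted p = 0.196) and without either shRCOR2, the induced shCTRL or the induced shRCOR1 pair. Histone genes have similar copies, so their single values are uncertain.

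Genes of ribosomal proteins, of ribosome biogenesis and of the nuclear-encoded respiratory chain were lower in replicate 2, by small amounts. Of 64 cytosolic ribosomal protein genes, 52 were called lower (81.2%) and 0 higher, against 14.0% and 33.4% of all genes. Their median was −0.21, with pair medians from −0.25 to −0.17. In the highest of 5 equal groups of protein-coding genes by mean TPM, 1128 of 2578 were called lower and 404 higher. Whether the ribosomal protein and ribosome biogenesis lists stand apart from genes of like level was not tested. RPS21, a small-subunit protein, ran over 2453 to 3194 TPM in replicate 1 and 1773 to 2357 TPM in replicate 2 (−0.46 ± 0.04, limma adjusted p = 0.000826), with no overlap of the sets. RPS29 went the same way, over 854 to 1121 TPM in replicate 1 and 534 to 877 TPM in replicate 2 (−0.58 ± 0.06, limma adjusted p = 0.000826), with overlap through 1 library of each set. Ribosomal protein genes have many processed pseudogenes, and the rule for reads with several alignments is not known, so their single values are uncertain. The list was called lower in 57 genes with median-of-ratios scaling, while quantile normalization gave 18 lower and 5 higher. Of 39 ribosome biogenesis and MYC target genes 21 were lower (53.8%) and 0 higher (median −0.20), and 15 were lower without the shCTRL line. This list was uneven, with pair medians from −0.44 in induced shCTRL to −0.04 in untreated shRCOR1 cells. Aminoacyl-tRNA synthetase genes, which also serve protein synthesis, were not lower as a list and are given with the stress genes. NME1, a nucleoside diphosphate kinase and MYC target, held 852, 961 and 1070.3 TPM in replicate 1 and 377, 583 and 767 TPM in replicate 2 (lowest, median, highest) without overlap (−0.72 ± 0.10, limma adjusted p = 0.00125). ODC1, the rate-limiting enzyme of polyamine synthesis, was lower in each pair (−0.54 ± 0.07, limma adjusted p = 0.00101), as was the nucleolar RRP9 (−0.50 ± 0.11, limma adjusted p = 0.00682; −0.31 without the shCTRL line). MYCN itself was at 2528 ± 686 TPM in replicate 1 and 2058 ± 710.1 TPM in replicate 2 (SD, n = 6 each), lower in 5 of 6 pairs and not called (−0.32 ± 0.13, limma adjusted p = 0.078). MYCN was called with median-of-ratios scaling (−0.44, limma adjusted p = 0.0379) and without the induced shRCOR1 pair (−0.41, limma adjusted p = 0.0475).

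The respiratory chain split by genome of origin. Of 42 nuclear genes for its subunits, 34 were called lower (81.0%) and 0 higher, against 14.0% and 33.4% of all genes. Of the 42, 33 were lower in the 6 pairs (list median −0.25, pair medians −0.31 to −0.24). COX6A1, a subunit of cytochrome c oxidase, held 381, 514 and 523 TPM in replicate 1 and 273, 367 and 387 TPM in replicate 2 (lowest, median, highest; −0.45 ± 0.03, limma adjusted p = 0.000826), and its pairs differed among themselves by little, from −0.49 to −0.39. ATP5MC1 (−0.52 ± 0.05, limma adjusted p = 0.000826), the rotor subunit of ATP synthase, and UQCRQ (−0.50 ± 0.06, limma adjusted p = 0.0009), of complex III, were lower too. Of the 13 proteins encoded by mitochondrial DNA, 12 were called higher (92.3%) and 0 lower (median 0.33). MT-ND4, a complex I subunit, ran over 5770.5 to 7613 TPM in replicate 1 and 10039 to 14408 TPM in replicate 2 (0.82 ± 0.07, limma adjusted p = 0.000826), and MT-ND5 (0.83 ± 0.07, limma adjusted p = 0.000826) and MT-ND4L (0.82 ± 0.07, limma adjusted p = 0.000826) were close to it. The MT-ND4 sets did not overlap. MT-ND6, the subunit encoded on the other mitochondrial strand, was the list member not called and was singled out after its values were seen (−0.12 ± 0.07, limma adjusted p = 0.167). Because mitochondrial RNA takes a larger share of the TPM in replicate 2, it lowers the share of the other genes. With the mitochondrial genes left out, 29 nuclear respiratory genes were called lower and 1 higher. With quantile normalization 22 of those were lower, and 4 mitochondrially encoded genes were higher and 1 lower.

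Genes of the ATF4 stress response were higher in replicate 2 as a list, unevenly between pairs. Of 33 measured ATF4 targets 23 were called higher and 0 lower, and 17 were higher in the 6 pairs, against 33.4% and 14.0% of all genes. Their median was 0.39, and the pair medians ran from 0.03 in induced shRCOR2 to 0.76 in untreated shCTRL cells. SLC7A11, the cystine importer, held 4.17, 9.06 and 20.2 TPM in replicate 1 and 7.62, 18.9 and 32.9 TPM in replicate 2 (lowest, median, highest; 0.94 ± 0.15, limma adjusted p = 0.00195). In untreated shCTRL, shRCOR1 and shRCOR2 cells, in that order, the SLC7A11 libraries held 4.36, 4.17 and 4.41 TPM in replicate 1 and 16.7, 7.62 and 9.62 TPM in replicate 2, and in induced cells the order gave 13.7, 20.2 and 15.3 TPM and 30.9, 32.9 and 21.2 TPM. Induced libraries were above untreated ones of the same line in either set, so the sets overlapped although each pair was higher in replicate 2. ATF5, a related transcription factor, was higher in 6 of 6 pairs (1.02 ± 0.26, limma adjusted p = 0.0128; 0.51 without the shCTRL line), and GDF15, a secreted stress cytokine, in 5 of 6 (1.28 ± 0.34, limma adjusted p = 0.0148). GDF15 reached 111 TPM in induced shRCOR1 replicate 2 and its call ended without the shCTRL line (0.96, limma adjusted p = 0.108). The ATF4 transcript, chosen after its values were seen, was not called (−0.02 ± 0.06, limma adjusted p = 0.816). Without the shCTRL line 12 of the list were called higher, and over the scalings 17 to 25.

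Among the other stress lists, heat shock genes were lower in part and the rest held calls in both directions. Of 18 cytosolic aminoacyl-tRNA synthetase genes 8 were called higher (44.4%) and 2 lower (11.1%; median 0.14), against 33.4% and 14.0% of all genes, with LARS1, for leucine, higher in 5 pairs (0.46 ± 0.09, limma adjusted p = 0.00413). The count of higher synthetase genes was 3 without the untreated shCTRL pair, 5 without the induced shCTRL pair, 4 without the induced shRCOR1 or the untreated shRCOR2 pair and 1 with median-of-ratios scaling. For 24 genes of endoplasmic reticulum stress 7 were higher and 3 lower (median 0.06, −0.06 with median-of-ratios scaling), and 1 was lower without the untreated shCTRL pair. Those shares, 29.2% and 12.5%, are near the 33.4% and 14.0% of all genes and do not set the list apart. EDEM1, which sends misfolded glycoproteins to degradation, was higher in each pair (0.94 ± 0.19, limma adjusted p = 0.00579; 0.60 without the shCTRL line). Of 19 heat shock genes 9 were called lower (47.4%) and 0 higher (median −0.15). That count was 5 without the untreated shCTRL or the induced shRCOR1 pair, 4 without the shCTRL line and 1 with quantile normalization. HSPA8, the constitutive cytosolic chaperone, ran over 1247 to 2713 TPM in replicate 1 and 599.9 to 1849 TPM in replicate 2, lower in each pair although the sets overlapped (−0.50 ± 0.11, limma adjusted p = 0.00786; −0.31 without the shCTRL line). HSPE1, a mitochondrial chaperonin, was lower as well (−0.38 ± 0.08, limma adjusted p = 0.00523), but not called with quantile normalization (−0.19, limma adjusted p = 0.0533). Of 22 NRF2 antioxidant genes 5 were higher and 5 lower (22.7% each), with 11 lower under median-of-ratios scaling. HMOX1, the haem-degrading enzyme, was among the higher ones (1.10 ± 0.37, limma adjusted p = 0.0363). Its induced shRCOR1 pair went from 30.8 to 316 TPM, and the difference was 0.66 without that pair. The HMOX1 call ended with median-of-ratios scaling (0.99, limma adjusted p = 0.0503), with quantile normalization (1.03, limma adjusted p = 0.0578) and without the untreated shCTRL (1.18, limma adjusted p = 0.0615) or the induced shCTRL pair (1.03, limma adjusted p = 0.0877).

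**Figure D2:**
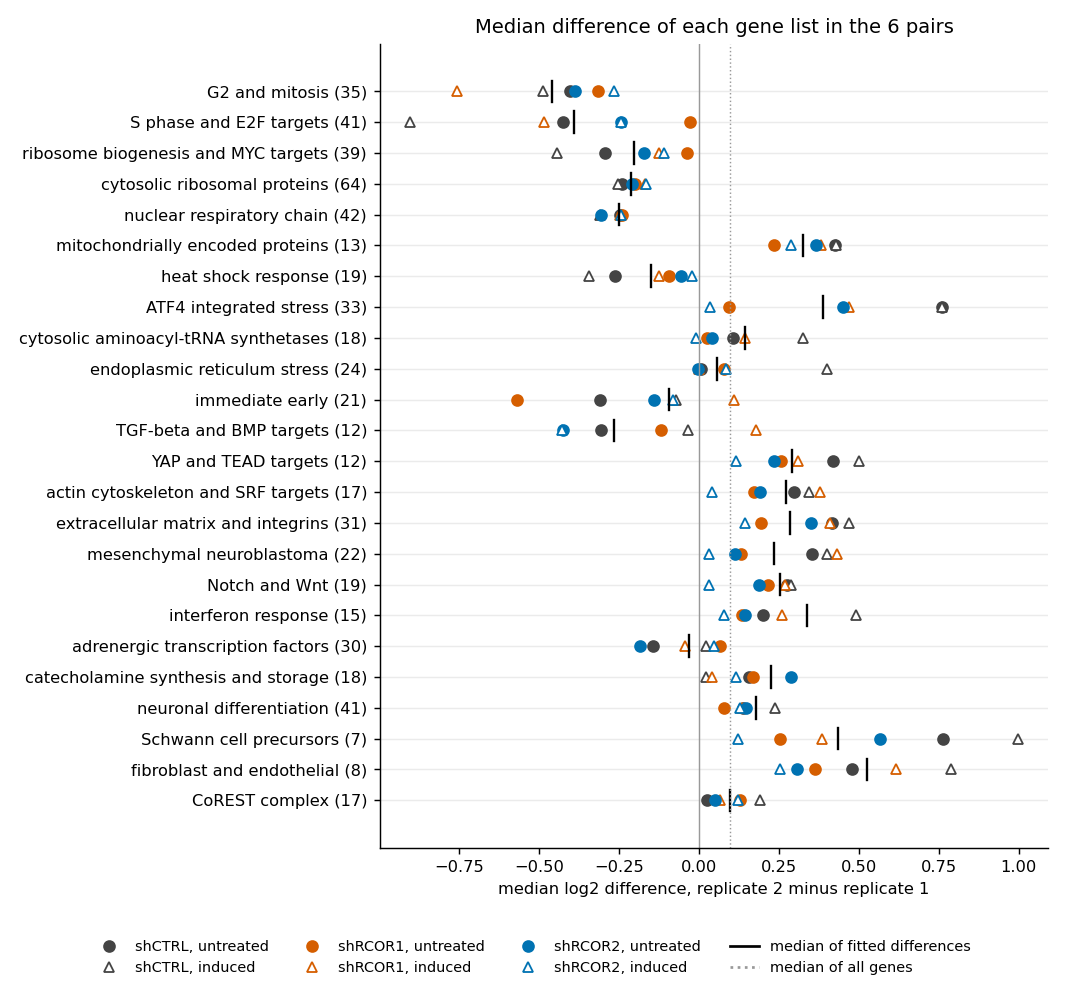
For 24 gene lists, with the number of genes tested in brackets, points give the median log2 difference, replicate 2 minus replicate 1, in each of the 6 pairs (colour for line, filled circles untreated, open triangles induced), black bars the median of the fitted differences and the dotted line the median of all genes, 0.10. The 6 points of G2 and mitosis, ribosomal proteins and nuclear respiratory chain lie below 0, and those of mitochondrially encoded proteins and extracellular matrix lie above the dotted line.

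The immediate early genes FOS and EGR1 showed the largest falls of the 16842 genes tested, unevenly over the groups. EGR1, a zinc finger factor induced by serum, is shown with the 110 bases before its start because they hold a pair of CArG boxes, marked in capitals (plus strand, chr5:138465369-138465478, GRCh38.p14).
EGR1: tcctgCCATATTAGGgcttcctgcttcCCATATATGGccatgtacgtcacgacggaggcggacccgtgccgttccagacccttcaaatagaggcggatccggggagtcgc
In untreated shCTRL, shRCOR1 and shRCOR2 cells, in that order, the EGR1 libraries held 187, 113 and 44.7 TPM in replicate 1 and 1.40, 2.57 and 3.08 TPM in replicate 2, and in induced cells the order gave 58.9, 40.0 and 19.5 TPM and 1.21, 42.0 and 11.6 TPM. The 3 untreated replicate 2 libraries and the induced shCTRL one were the lowest for EGR1 (chromosome 5, 138465479 to 138469303), whereas in induced shRCOR1 cells replicate 2 was slightly the higher (−3.36 ± 0.79 over the 6 pairs, limma adjusted p = 0.00929). FOS (chromosome 14, 75278826 to 75282230), a subunit of the AP-1 factor, held 209, 202 and 60.4 TPM in untreated replicate 1 libraries of the same order and 1.38, 3.85 and 6.10 TPM in replicate 2. Induced FOS libraries held 72.8, 50.4 and 16.6 against 1.46, 31.7 and 8.66 TPM (−3.57 ± 0.76, limma adjusted p = 0.00625). JUN, its partner, ran over 48.2 to 241 TPM in replicate 1 and 29.7 to 68.2 TPM in replicate 2 (−1.58 ± 0.37, limma adjusted p = 0.00926). Its 3 untreated pairs differed by −2.94, −2.98 and −1.63 against −1.20, −0.66 and −0.08 in induced cells. The treatment-by-replicate difference (induced minus untreated) was 2.85 ± 1.25 for FOS, 3.13 ± 1.25 for EGR1 and 1.87 ± 0.41 for JUN. limma called none of these (adjusted p = 0.955 for each). IER2 (−1.04 ± 0.24, limma adjusted p = 0.00865) and JUNB (−0.89 ± 0.19, limma adjusted p = 0.00666), 2 further rapid response genes, were lower in each pair.

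The other genes of the list differed less. Of 21 immediate early genes 9 were called lower (42.9%) and 2 higher (9.52%), against 14.0% and 33.4% of all genes. In all 6 pairs 6 were lower, and the list median of −0.09 ran from −0.57 to 0.11 over the pairs. The count of higher genes was 0 or 1 whenever 1 pair was left out. A CArG box stood in 2 of 18 matched promoters of the list (11.1%) and in 1 of the 9 called lower, that of EGR1, against 1.46% of all promoters. No match says only that the letters are not in this window. Without the shCTRL line 3 of the list were called lower. EGR1 (−2.28, limma adjusted p = 0.0676), JUN (−1.34, limma adjusted p = 0.0527) and IER2 (−0.75, limma adjusted p = 0.0644) were then not called.

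**Figure D3:**
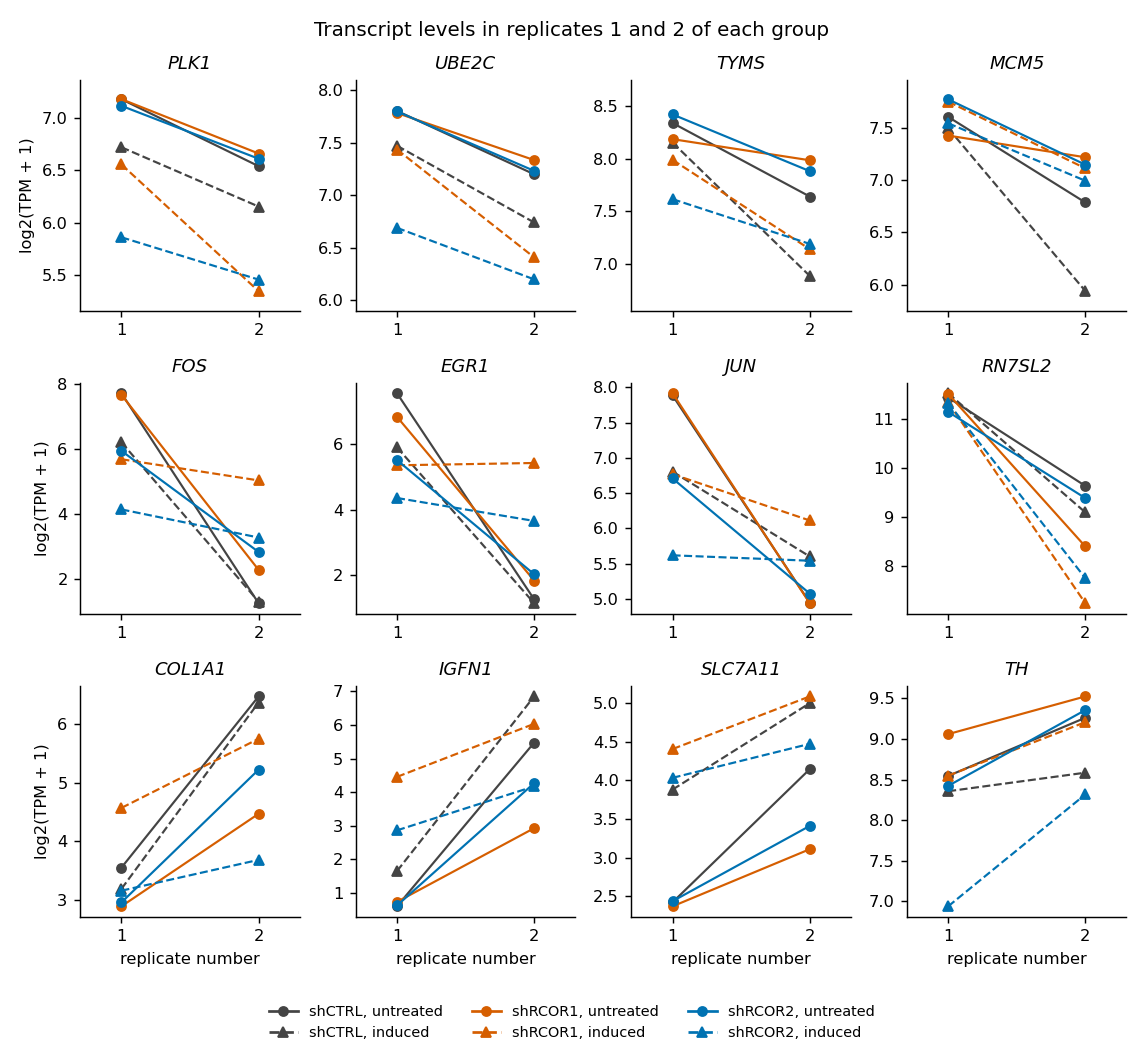
Paired log2(TPM + 1) values of 12 genes in replicates 1 and 2, with 1 line per group (colour for the hairpin line, solid with circles untreated, dashed with triangles induced) and a separate vertical scale in each panel. PLK1, UBE2C, TYMS, MCM5 and RN7SL2 fall and COL1A1, IGFN1, SLC7A11 and TH rise in every group. EGR1 is flat in induced shRCOR1 cells and falls steeply in the untreated groups and in induced shCTRL cells.

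Genes of the extracellular matrix and its receptors were higher in replicate 2. Of 31 measured, 26 were called higher (83.9%) and 1, TIMP1, lower (3.23%), against 33.4% and 14.0% of all genes. In all 6 pairs 23 were higher (list median 0.28, pair medians 0.14 to 0.47). In untreated shCTRL, shRCOR1 and shRCOR2 cells, in that order, the COL1A1 libraries held 10.7, 6.43 and 6.78 TPM in replicate 1 and 87.3, 21.1 and 36.2 TPM in replicate 2, and in induced cells the order gave 8.13, 22.7 and 7.94 TPM and 81.2, 52.6 and 11.9 TPM. COL1A1 (chromosome 17, 50184101 to 50201632), a chain of type I collagen, was thus higher in each replicate 2 library than in its partner, by the most in shCTRL cells, and the sets overlapped through the induced shRCOR1 and shRCOR2 libraries (1.94 ± 0.32, limma adjusted p = 0.00249). COL3A1, of type III collagen, held 1.33, 2.88 and 5.64 TPM in replicate 1 and 5.04, 8.85 and 25.3 TPM in replicate 2 (lowest, median, highest; 1.48 ± 0.18, limma adjusted p = 0.000991), with overlap. COL5A1, of type V collagen, did not overlap between the sets, over 4.46 to 5.82 TPM in replicate 1 and 9.96 to 25.9 TPM in replicate 2 (1.41 ± 0.15, limma adjusted p = 0.000826). Scaling left 14 to 28 of the list called higher, and without the shCTRL line 17 were.

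Mesenchymal, cytoskeletal and YAP-dependent genes were also called higher in part. A mean TPM of at least 5 was reached by 15 of 17 actin and SRF target genes and by 4 of 12 YAP and TEAD targets. Of 22 mesenchymal neuroblastoma genes 11 were called higher (50.0%) and 1, ID1, lower (4.55%), with a median of 0.23. Of all genes 33.4% were called higher and 14.0% lower. With quantile normalization 6 of the list were higher and 3 lower, and without the induced shRCOR1 pair 2 were lower. Among its 14 genes with a mean TPM of at least 5, 5 were higher and 1 lower. Their median was 0.08, against 0.05 for all genes that passed this filter. FN1, for fibronectin, ran over 9.29 to 18.3 TPM in replicate 1 and 14.6 to 37.1 TPM in replicate 2 (0.86 ± 0.13, limma adjusted p = 0.00195), and PDGFRA, a growth factor receptor of mesenchyme, over 0.747 to 1.59 TPM in replicate 1 and 1.44 to 8.41 TPM in replicate 2 (1.16 ± 0.23, limma adjusted p = 0.00519). PRRX1, a homeobox factor of mesenchymal cells, was higher (1.17 ± 0.36, limma adjusted p = 0.0265) with most of the difference in the shCTRL line. Its call ended without its untreated (0.82, limma adjusted p = 0.054) or its induced pair (0.94, limma adjusted p = 0.0745) and with quantile normalization (0.96, limma adjusted p = 0.0509). The difference was 0.45 without both pairs. Among 17 actin and SRF target genes 11 were higher (64.7%) and 2 lower (11.8%), with a median of 0.27, and 7 were higher without the shCTRL line. CNN2, for the actin-binding calponin 2, held 2.35, 4.55 and 19.7 TPM in replicate 1 and 7.29, 19.96 and 29.1 TPM in replicate 2 (lowest, median, highest; 1.44 ± 0.23, limma adjusted p = 0.00204), with overlap through the induced shRCOR2 library of replicate 1. TPM2, a tropomyosin, ran over 5.56 to 15.5 TPM in replicate 1 and 20.3 to 41.2 TPM in replicate 2 without overlap (1.31 ± 0.20, limma adjusted p = 0.00176). Of 12 YAP and TEAD targets 8 were higher (66.7%) and 0 lower, with a median of 0.29. Among them were AMOTL2 (0.69 ± 0.16, and 0.41 without the shCTRL line), AJUBA (0.60 ± 0.12) and PTPN14 (0.58 ± 0.12), which all act in Hippo signalling. The YAP count was 5 without the untreated shCTRL pair, 5 with median-of-ratios scaling and 4 with quantile normalization. TGF-beta and BMP targets went against this, with 5 of 12 lower (41.7%) and 2 higher (16.7%) and a median of −0.27. None of them was called higher with quantile normalization or without either shCTRL, the induced shRCOR1 or the untreated shRCOR2 pair, 1 was without the untreated shRCOR1 pair and 3 were without the induced shRCOR2 pair. ID1, a BMP-induced inhibitor of helix-loop-helix factors, was lower in 5 pairs (−0.60 ± 0.15, limma adjusted p = 0.0114), and BAMBI, a decoy receptor, in 6 (−0.54 ± 0.11, limma adjusted p = 0.00452).

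Notch, Wnt and interferon genes were called higher in part, by counts that depend on the scaling. In the Notch and Wnt list 10 of 19 were called higher (52.6%, against 33.4% of all genes) and 1 lower (NRARP; median 0.25), against 2 and 3 with quantile normalization. In that list 6 were higher without the shCTRL line, and leaving out 1 pair gave 0 to 2 lower. NOTCH3, a Notch receptor, was higher in each pair (0.77 ± 0.14, limma adjusted p = 0.00362). Of 15 interferon response genes 8 were higher (53.3%) and 1 lower (OAS1; median 0.34), and 4 higher without the shCTRL line. With quantile normalization 3 were higher and 4 lower, and 0 were lower without either shCTRL or either shRCOR2 pair. STAT2 and IRF9 encode partners in the interferon-activated factor ISGF3. STAT2 ran over 7.98 to 12.2 TPM in replicate 1 and 11.97 to 22.9 TPM in replicate 2 (0.72 ± 0.10, limma adjusted p = 0.00134), and IRF9 over 1.44 to 3.03 TPM in replicate 1 and 3.26 to 10.6 TPM in replicate 2 (1.03 ± 0.20, limma adjusted p = 0.00433). BST2, an interferon-induced membrane protein that tethers virus particles, was higher (1.02 ± 0.23, limma adjusted p = 0.00818; 0.61 without the shCTRL line). In the retinoic acid list 5 of 12 were higher (41.7%) and 2 lower (16.7%), with 2 higher without the shCTRL line; on so few genes these shares are near the 33.4% and 14.0% of all genes and do not set the list apart. In it 0 were lower without either shCTRL or the untreated shRCOR2 pair, and 1 without either the untreated shRCOR1 or the induced shRCOR2 pair. CYP26B1, which breaks retinoic acid down, was higher (0.75 ± 0.13, limma adjusted p = 0.00282).

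Genes of adrenergic identity were expressed in both sets. HAND2, a transcription factor of this lineage, ran over 617 to 805 TPM in replicate 1 and 537 to 965 TPM in replicate 2 (0.16 ± 0.08, limma adjusted p = 0.121), and DBH, which makes noradrenaline, over 599 to 1158 TPM in replicate 1 and 764 to 1119 TPM in replicate 2 (−0.03 ± 0.09, limma adjusted p = 0.823); both genes were chosen after their values were seen. The list of adrenergic transcription factors also holds the receptor gene RET. Of the 30 measured genes of this list 3 were called higher (10.0%) and 8 lower (26.7%), RET among the lower ones. Of all genes 33.4% were called higher and 14.0% lower. The list median was −0.03, and 0.03 with the mitochondrial genes left out. The lower count was 4 without the untreated shCTRL pair, and the higher count was 5 without the induced shRCOR1 pair and 1 without the untreated shRCOR2 pair. In catecholamine synthesis and storage 9 of 18 were higher (50.0%) and 2 lower (11.1%; median 0.23), with 5 higher when the untreated shCTRL or the untreated shRCOR1 pair was left out, 2 without the shCTRL line and 4 with median-of-ratios scaling. The 2 lower genes of that list, SCG3 and CYB561, were 0 in number without the untreated shCTRL or untreated shRCOR2 pair and 1 without the induced shCTRL or untreated shRCOR1 pair. TH, the rate-limiting enzyme of that pathway (chromosome 11, 2163929 to 2171815), held 122, 357 and 532 TPM in replicate 1 and 318, 601 and 735 TPM in replicate 2 (lowest, median, highest; 0.73 ± 0.13, limma adjusted p = 0.00289). The TH sets overlapped, but each pair was higher in replicate 2, from 0.23 in induced shCTRL to 1.38 in induced shRCOR2 cells.

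Among 41 neuronal differentiation genes 18 were called higher (43.9%) and 8 lower (19.5%), against 33.4% and 14.0% of all genes (median 0.18; 13 and 11 with median-of-ratios scaling). STMN2, a microtubule regulator of growing axons, held 256, 432 and 593 TPM in replicate 1 and 599, 794 and 938 TPM in replicate 2 (lowest, median, highest; 0.87 ± 0.10, limma adjusted p = 0.0009). DCX, doublecortin, another microtubule protein of young neurons, ran over 4.25 to 14.9 TPM in replicate 1 and 7.94 to 23.2 TPM in replicate 2 (0.83 ± 0.11, limma adjusted p = 0.00116). The STMN2 sets did not overlap, and those of DCX did. NGFR, the low-affinity neurotrophin receptor, was higher in 5 pairs (1.15 ± 0.24, limma adjusted p = 0.00629). GAP43, a growth cone protein taken up here after its values were seen, was lower in each pair (−0.28 ± 0.07, limma adjusted p = 0.00975), and SNAP25, of the synaptic vesicle fusion machinery and chosen likewise, was not called (0.00 ± 0.06, limma adjusted p = 0.98).

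Markers of other cell types were mostly at very low levels, and some were higher in replicate 2. Of the defining markers, CDH1, KRT5, CD3E and HBB were listed at 0 in the 12 libraries, PECAM1 was at 0 in replicate 2 and at most 0.00389 TPM in replicate 1, and SOX10, S100B, DCN, CDH5 and PTPRC stayed at or below 0.182 TPM. Of all genes 33.4% were called higher and 14.0% lower. In the lowest of 5 equal groups of protein-coding genes by mean TPM, 1141 of 2578 were called higher and 68 lower. The marker lists are short, and whether they stand apart from genes of like level was not tested. In the Schwann cell precursor list 7 of 7 measured genes were called higher. Without the untreated shCTRL pair 3 were called, 4 without the induced shCTRL or the untreated shRCOR2 pair, and 2 with quantile normalization. The summed level of the 12 genes of that list was 15.97 to 24.0 TPM in replicate 1 and 16.8 to 50.6 TPM in replicate 2. In the fibroblast and endothelial list 5 of 8 were higher, COL1A1 and PDGFRA among them, with sums over its 14 genes of 52.96 to 84.6 TPM and 82.0 to 158 TPM. LUM, for the matrix protein lumican, ran over 0.242 to 0.562 TPM in replicate 1 and 0.685 to 2.16 TPM in replicate 2 (0.59 ± 0.11, limma adjusted p = 0.00439). In the epithelial list 3 of 4 were higher (1 without the shCTRL line), with sums over 9 genes of 6.18 to 17.9 TPM and 8.92 to 31.9 TPM. KRT18, a keratin, reached 12.3 TPM in induced shRCOR1 replicate 2 (1.04 ± 0.22, limma adjusted p = 0.00633). No gene of the leukocyte list passed the filter; its 12 genes summed to 0.243 to 0.584 TPM and 0.293 to 1.08 TPM. Whether other cells had a part in the matrix and mesenchymal differences was not tested.

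Metabolic lists held genes called in both directions, mostly in shares near those of all genes (33.4% higher and 14.0% lower). Of 39 glycolysis and hypoxia genes 16 were called higher (41.0%) and 6 lower (15.4%), against 9 and 10 with median-of-ratios scaling, and the list median of 0.12 is near the 0.10 of all genes. NDRG1, a hypoxia-induced gene, ran over 3.42 to 28.3 TPM in replicate 1 and 7.10 to 45.6 TPM in replicate 2 (1.04 ± 0.14, limma adjusted p = 0.00123), and SLC16A3, the lactate exporter, over 5.53 to 43.8 TPM in replicate 1 and 12.7 to 60.0 TPM in replicate 2 (0.73 ± 0.15, limma adjusted p = 0.00519). In NDRG1 each pair was higher and the sets overlapped; the list's median became −0.02 when libraries were centred within bins of transcript length and GC content. Of 29 lysosome and autophagy genes 12 were higher (41.4%) and 5 lower (17.2%), with 2 lower without the induced shRCOR1 or untreated shRCOR2 pair and 3 without the untreated shCTRL or induced shRCOR2 pair. ULK1, the kinase that starts autophagy, was higher in each pair (0.53 ± 0.07, limma adjusted p = 0.00116). Cholesterol synthesis genes showed 3 higher (12.5%) and 1 lower (PMVK) of 24; without the induced shRCOR1 pair 8 were higher, and without the induced shCTRL pair 2 were lower. ACSS2, which makes acetyl-CoA from acetate, was higher (1.03 ± 0.22, limma adjusted p = 0.00668; 0.62 without the shCTRL line), as was the cholesterol exporter ABCG1 (0.70 ± 0.09, limma adjusted p = 0.00127). Of 28 p53 targets 10 were higher (35.7%) and 4 lower (14.3%), against 3 and 4 without the shCTRL line, so the list does not stand apart from all genes. POLK, a translesion polymerase, was higher among them (0.80 ± 0.12, limma adjusted p = 0.00167). SESN3, a sestrin under FOXO control, was higher in each pair (0.99 ± 0.24, limma adjusted p = 0.0102; 0.53 without the shCTRL line).

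The CoREST complex, whose scaffolds the hairpins target, differed little. RCOR1 was not called (0.00 ± 0.06, limma adjusted p = 0.965), nor were RCOR2 (−0.05 ± 0.06, limma adjusted p = 0.513) and KDM1A, the histone demethylase of the complex (0.01 ± 0.03, limma adjusted p = 0.797). KDM1A was called higher with quantile normalization (0.18, limma adjusted p = 0.00572) and RCOR1 lower with centring by length and GC (−0.17, limma adjusted p = 0.0421). RCOR3, the third family member, was higher in each pair (0.28 ± 0.07, limma adjusted p = 0.00947), and not called without the shCTRL line (0.18, limma adjusted p = 0.0518). REST, the repressor of neuronal genes that recruits CoREST, ran over 1.07 to 3.17 TPM in replicate 1 and 1.27 to 7.06 TPM in replicate 2 (0.77 ± 0.16, limma adjusted p = 0.00527), and PHF21A, a reader of unmethylated histone H3, was higher (0.51 ± 0.07, limma adjusted p = 0.00127). Of the 17 genes of this list 7 were called higher (41.2%, against 33.4% of all genes) and 0 lower (median 0.10, −0.01 with median-of-ratios scaling; 3 higher without the shCTRL line). Among 23 Polycomb and other chromatin genes 11 were higher (47.8%) and 1, EZH2, lower (4.35%), against 33.4% and 14.0% of all genes. The median of these chromatin genes was 0.13, and −0.03 with centring by length and GC. The higher ones included the demethylase gene KDM6B (0.78 ± 0.14, limma adjusted p = 0.00282), the methyltransferase gene KMT2D (0.62 ± 0.07, limma adjusted p = 0.000826) and the demethylase gene KDM5B (0.47 ± 0.07, limma adjusted p = 0.00216). Leaving out 1 pair gave 0 to 3 lower chromatin genes. Splicing factors leaned the other way in TPM, with 11 of 30 lower (7 without the untreated shCTRL pair) and 6 higher (median −0.05, but 0.07 with quantile normalization and 0.02 with the mitochondrial genes left out). HNRNPC, which binds nascent RNA, was lower in each pair while the sets overlapped (−0.37 ± 0.04, limma adjusted p = 0.000826).

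Non-coding RNAs held some of the largest differences. RN7SL2 and RN7SL1 are the RNA of the signal recognition particle. RN7SL2 (chromosome 14, 49862550 to 49862849) held 2251, 2661 and 2922 TPM in replicate 1 and 152, 443 and 794 TPM in replicate 2 (lowest, median, highest; −2.78 ± 0.30, limma adjusted p = 0.000826). RN7SL1 held 1282, 1403 and 1581 TPM in replicate 1 and 112, 372 and 453 TPM in replicate 2 (−2.35 ± 0.24, limma adjusted p = 0.000826). The replicate 1 libraries were even in RN7SL2 and none came near a replicate 2 library, whereas those of replicate 2 spread from 152 TPM in induced shRCOR1 to 794 TPM in untreated shCTRL cells. These 2 genes are near-identical and have many genomic copies, so their separate values are uncertain. RNU1-1, the U1 small nuclear RNA gene, was higher in 5 pairs (0.92 ± 0.22, limma adjusted p = 0.0107; 0.53 without the shCTRL line). Of 18 small structured RNAs 6 were called higher (33.3%) and 3 lower (16.7%), near the 33.4% and 14.0% of all genes, so the list as a whole does not stand apart. The higher count was 3 without the induced shCTRL, untreated shRCOR1, induced shRCOR1 or untreated shRCOR2 pair and 1 without the shCTRL line. MIAT, a long nuclear RNA of neurons, ran over 26.0 to 44.9 TPM in replicate 1 and 55.9 to 128 TPM in replicate 2 without overlap (1.12 ± 0.11, limma adjusted p = 0.000826). MALAT1, of nuclear speckles, ran over 74.4 to 159.9 TPM in replicate 1 and 118 to 249.95 TPM in replicate 2 (0.64 ± 0.16, limma adjusted p = 0.0119; 0.35 without the shCTRL line). In the list of long nuclear RNAs 7 of 19 were higher (36.8%) and 4 lower (21.1%), also near those shares, and 2 lower without the untreated shCTRL or untreated shRCOR2 pair. Over gene types, 261 of 706 lincRNA genes were higher and 25 lower (median 0.19), against 92 and 120 of 755 processed pseudogenes (median −0.04).

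The difference was graded by transcript length and level. Over 12889 protein-coding genes, the median difference in 5 equal groups by transcript length was −0.07, 0.03, 0.08, 0.12 and 0.20 from the shortest to the longest. In 5 groups by mean TPM it was 0.24, 0.16, 0.10, 0.03 and −0.10 from the lowest to the highest, and by GC content 0.11, 0.07, 0.06, 0.06 and 0.11. Spearman's rho with the difference, across genes that share the same libraries and are no independent replicates, was 0.32 for length, −0.42 for mean TPM and 0.00 for GC content. The group of shortest transcripts held 451 higher and 941 lower genes, and that of the longest 1366 and 73. Whether level had a part in the list differences was not tested. Length was examined only through the centring that follows, which used transcript length and GC content and not level. The mitotic genes had a median of −0.50 after libraries were centred within bins of length and GC, S phase genes −0.50, nuclear respiratory chain genes −0.31, ribosomal protein genes −0.25 and matrix genes 0.14.

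**Figure D4:**
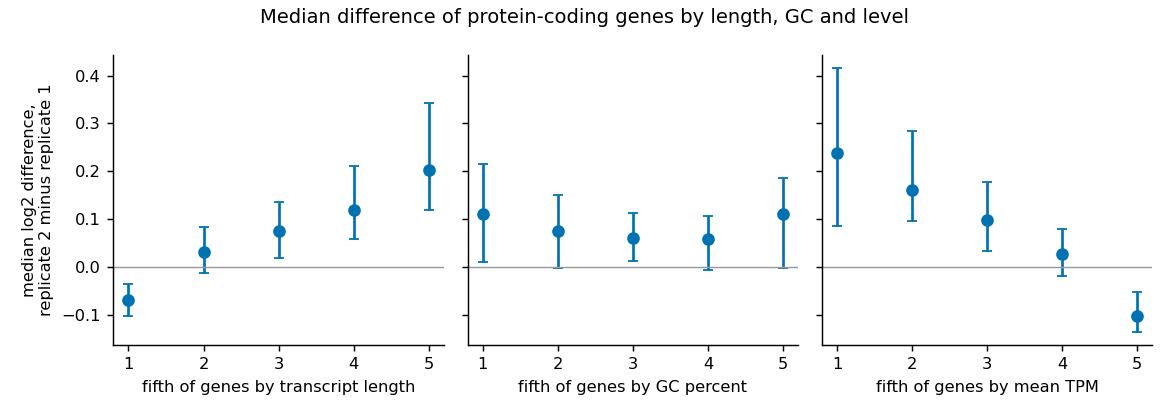
Median log2 difference, replicate 2 minus replicate 1, of protein-coding genes in 5 equal groups by transcript length, GC percent and mean TPM; bars run from the lowest to the highest of the 6 pair medians. The median climbs from −0.07 to 0.20 with length, drops from 0.24 to −0.10 with level and stays between 0.06 and 0.11 over GC.

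The size of the difference varied between groups. Its SD over genes was 0.47 in untreated and 0.56 in induced shCTRL cells, 0.34 and 0.39 in shRCOR1 and 0.37 and 0.30 in shRCOR2 cells. In induced shCTRL cells 1252 genes were higher and 197 lower by at least 1, and in induced shRCOR2 cells 105 and 49. Whether doxycycline changed the replicate difference was tested directly. limma called 0 of 16842 genes (0%; 829 at an unadjusted p below 0.05). Between lines, limma called 4 genes in shRCOR1 against shCTRL (0.0238%; 2279 unadjusted) and 0 in shRCOR2 against shCTRL (0%; 2734 unadjusted), with 3 residual degrees of freedom. Fitted by themselves, the 3 untreated pairs gave 4285 called genes and the 3 induced pairs 0 (5914 unadjusted). The 2 pairs of shCTRL gave 5892, of shRCOR1 2 (4877 unadjusted) and of shRCOR2 1 (4266 unadjusted). These counts do not show that the groups differed, since the tests of that difference are the ones before.

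RET was close to the threshold for a difference between lines. RET, the receptor of the GDNF family and a retinoic acid target (chromosome 10, 43077064 to 43130351), went from 61.1 to 18.3 TPM in untreated and 86.5 to 25.2 TPM in induced shCTRL cells (replicate 1 to replicate 2). It went from 82.7 to 31.4 and 49.8 to 24.1 TPM in shRCOR2 cells. In shRCOR1 cells it went from 45.0 to 41.1 TPM untreated and from 172 to 213 TPM induced, so that 5 of 6 pairs were lower (−0.94 ± 0.27, limma adjusted p = 0.0198). Its shRCOR1 difference exceeded that of shCTRL by 1.81 ± 0.18, limma adjusted p = 0.0526, which is not called, and its shRCOR2 difference by 0.52 ± 0.18, limma adjusted p = 0.249. The call of RET over the 6 pairs ended without the untreated shCTRL (−0.79, limma adjusted p = 0.0601), induced shCTRL (−0.78, limma adjusted p = 0.0557) or untreated shRCOR2 pair (−0.85, limma adjusted p = 0.056). PRRX1 went from 0.562 to 10.7 and 0.952 to 8.50 TPM in shCTRL cells and stayed at or below 1.19 TPM in the other lines (shRCOR1 minus shCTRL −2.06 ± 0.26, limma adjusted p = 0.124). COL11A1, a minor fibrillar collagen chosen after its values were seen, went from 3.23 to 14.7 and 3.64 to 17.5 TPM in shCTRL cells and from 1.63 to 2.09 and 1.56 to 2.32 TPM in shRCOR1 cells (−1.64 ± 0.17, limma adjusted p = 0.0748). BOLA2, an iron-sulfur cluster assembly gene in a segmental duplication, is 1 of the 4 genes called in that contrast.

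**Figure D5:**
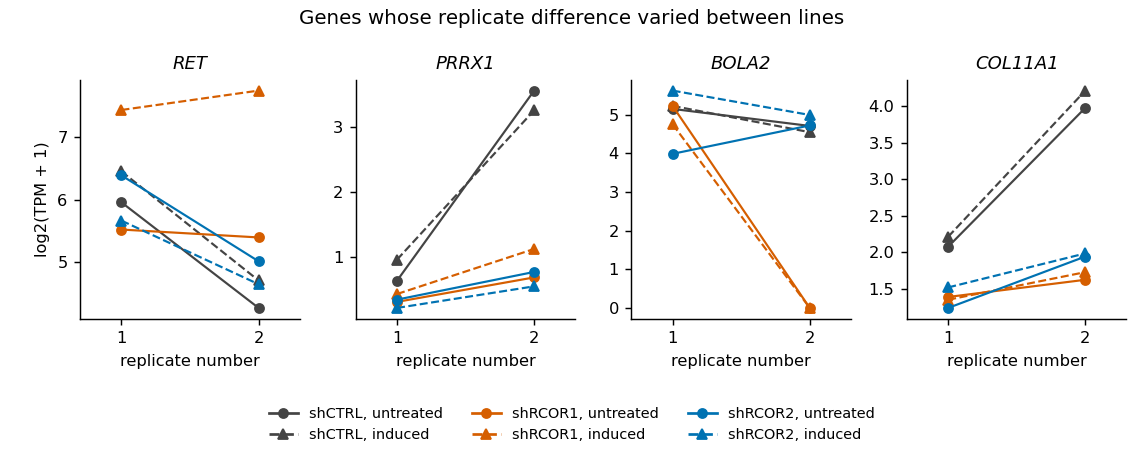
Paired log2(TPM + 1) values of RET, PRRX1, BOLA2 and COL11A1 in replicates 1 and 2, with 1 line per group (colour for the hairpin line, solid with circles untreated, dashed with triangles induced) and a separate vertical scale in each panel. RET drops in shCTRL and shRCOR2 cells and not in induced shRCOR1 cells, PRRX1 and COL11A1 climb most in shCTRL cells, and BOLA2 is listed at 0 in both shRCOR1 libraries of replicate 2.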

How the data were processed

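RNA was extracted from the cultures with a column kit and made into directional libraries from total RNA, per the labels' protocols. Reads were trimmed with Trim Galore 0.6.7, aligned with HISAT2 2.2.1 and quantified with StringTie 2.1.7 on GRCh38/hg38, per the submitters' processing notes; no source used here gives the annotation release, the strand setting or how multiply aligned reads were counted. The deposited gene tables give TPM as the authors computed them, which were the values analysed. FPKM as deposited by the authors served as an alternative, and the deposited coverage, a signal of mean read depth per gene, served only for the depth ratio; without read counts no counting interval or floor could be given. Each table held 60660 gene identifiers, of which 58429 had a type in GENCODE v29, and rows of 1 identifier were summed. log2(TPM + 1) was fitted, for genes reaching 1 TPM in 2 or more libraries, in limma 3.58.1 (R 4.3.3, variance trend) with a mean for each of the 6 groups and a term for the replicate number; treatment and line were tested as interactions with that term. p-values were adjusted over all genes tested by Benjamini and Hochberg, with calls at 0.05. Library values were compared with an exact sign-flip permutation test. The genes named were the 12 largest differences in each direction (called, protein-coding, mean TPM at least 5, same sign in 6 pairs), the 3 largest called differences of each list with 2 or more called genes, RCOR1, RCOR2, RCOR3, KDM1A and MYCN, defining cell type markers, and up to 6 called genes per interaction; others are said to be chosen after their values were seen. Some genes that this rule names are not reported here. The members and lists were chosen with earlier results of these data known. Alternatives were other scalings, pseudocounts, filters, leaving out pairs and lines, and, chosen after seeing the data, centring within 25 bins of length and GC, leaving out the shCTRL line, and protein-coding genes alone. Promoter sequences came from RefSeq (GRCh38.p14). Python 3.11.15, numpy 2.4.6, pandas 2.3.3 and matplotlib 3.10.9 were used.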

Additional observations from a re-analysis of the deposited data

Results flagged for a closer look

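In 4 genes the replicate difference in shRCOR1 cells differed from that in shCTRL cells by limma's test of the difference itself; values run from replicate 1 to replicate 2, untreated first and induced next. BOLA2 (chromosome 16, 29443056 to 29454964), a gene of iron-sulfur protein assembly, went from 34.4 to 25.1 and 36.3 to 22.3 TPM in shCTRL, 36.3 to 0.00 and 25.9 to 0.00 TPM in shRCOR1 and 14.8 to 25.3 and 48.1 to 30.8 TPM in shRCOR2 cells, with an shRCOR1 minus shCTRL difference of −4.42 ± 0.40, limma adjusted p = 0.0437. It lies in a segmental duplication with near-identical copies, so a value listed at 0 may reflect how reads were shared between copies, which was not tested. NPIPP1 (chromosome 16, 15104312 to 15123498), a pseudogene of the nuclear pore interacting family, went from 10.8 to 12.9 and 15.4 to 15.6 TPM in shCTRL, 6.94 to 22.5 and 7.93 to 29.3 TPM in shRCOR1 and 12.6 to 20.01 and 15.8 to 22.9 TPM in shRCOR2 cells (1.54 ± 0.14, limma adjusted p = 0.0437). DHFRP1 (chromosome 18, 26170726 to 26171284), a processed pseudogene of dihydrofolate reductase, went from 70.5 to 41.9 and 56.5 to 32.4 TPM in shCTRL, 18.03 to 48.6 and 5.90 to 15.7 TPM in shRCOR1 and 26.1 to 19.9 and 53.9 to 52.0 TPM in shRCOR2 cells (2.09 ± 0.14, limma adjusted p = 0.00799). AC118553.2 (chromosome 1, 99970011 to 100083321), a protein-coding entry, went from 15.3 to 9.25 and 9.50 to 4.92 TPM in shCTRL, 1.70 to 13.3 and 3.63 to 16.4 TPM in shRCOR1 and 9.80 to 9.31 and 11.8 to 11.7 TPM in shRCOR2 cells (2.90 ± 0.19, limma adjusted p = 0.00799). Each of the 4 has copies or overlapping genes, and their levels are uncertain for that reason. With 4 called of 16842 and 3 residual degrees of freedom, these rest on 2 pairs a line.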

How the results depend on the processing

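limma called 7974 genes, of which 70.4% were higher in replicate 2; that share was 48.6% with median-of-ratios scaling, 47.6% with quantile normalization, 82.6% with mitochondrial genes left out and 48.3% with centring by length and GC. Leaving out 1 pair gave 6080 to 7628 calls, and leaving out the shCTRL line 4890. The 6 groups served as the pairing; a fit with no replicate block by group called 2415 genes. Fitted alone, untreated pairs gave 4285 calls, induced pairs 0 (5914 at an unadjusted p below 0.05), shCTRL pairs 5892, shRCOR1 pairs 2 (0% higher) and shRCOR2 pairs 1 (100% higher); the cause was not tested. The test by treatment called 0 genes, or 0 to 1 when a line was left out (1 without shCTRL), and that of shRCOR1 against shCTRL 2 with quantile normalization. Mitochondrial share and genes at a TPM of at least 1 ran over 4.05 to 4.50 points and 722 to 899 genes when 1 pair was left out; 5 pairs cannot give an exact p below 0.0625. RET was reversed in shRCOR1 pairs alone (0.092), as were the medians of liver X receptor targets with quantile normalization (−0.022), the CoREST list with median-of-ratios scaling (−0.015), and glycolysis and hypoxia (−0.024) and Polycomb genes (−0.034) with centring by length and GC; the cause was not tested. Of 157 named genes, calls were lost in 10 with median-of-ratios scaling, 28 with quantile normalization, 1 with FPKM, 48 with no filter, 36 without the shCTRL line and 3 to 20 when 1 pair was left out, with no change of sign in these. The files give no read totals, so depth limits low genes to an unknown extent.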
